A study of Mus musculus with 8 samples.

Results

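Ribosome biogenesis genes were followed in the immune cells of B16-OVA mouse melanomas. A gene was included if its symbol began with Nop, Nol, Utp, Rrp or Polr1 and then a letter or digit, or if it was Srm, Ncl, Npm1 or Fbl, and if it had at least 50 unique molecular identifiers (UMIs, 1 per captured RNA molecule) over all libraries. This rule found 44 symbols, of which 42 had enough UMIs, among 12577 genes at that level and 27998 genes in the table. Nol4, with 0 UMIs, and Nol3, with 9, were left out. The 42 genes had between 164 UMIs (Utp14b) and 94516 UMIs (Npm1).

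CD45+ cells were sorted from tumors in C57BL/6 mice and sequenced with the 10x Genomics 5′ assay, which counts UMIs per gene and cell. Treated mice had received adoptive cell transfer (ACT) of OT1 cells, CD8+ T cells whose receptor recognizes an ovalbumin peptide carried by the tumor, without prior lymphodepletion. Untransduced OT1 cells gave a library at day 5 and another at day 12 (untransduced ACT). OT1 cells that secrete PD1d, a decoy form of the PD-1 receptor, together with IL-2v, a variant of interleukin 2 (IL-2v ACT), or with IL-33, an alarmin cytokine (IL-33 ACT), each gave 1 library at day 12. A mixture of both of these cell products (combined ACT) gave libraries on days 5, 12 and 26, and non-treated tumors gave 1 labelled day 5. Each condition and day was 1 library made from the pooled tumors of several mice, and host and transferred CD8+ cells were not told apart here.

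Ribosomes are built in the nucleolus. RNA polymerase I transcribes a long precursor RNA, small nucleolar ribonucleoproteins (snoRNPs) modify it, and sets of processing factors cut and fold it into the RNAs of the small and the large subunit. T cells enlarge their nucleoli soon after their antigen receptor is engaged, and Myc, a transcription factor induced at that time, is known to drive many ribosome biogenesis genes. By role, the 42 genes hold 5 subunits of RNA polymerase I (Polr1a to Polr1e), 3 nucleolar chaperones and scaffolds (Npm1, Ncl and Nolc1), 4 snoRNP proteins (Fbl, Nop56, Nop58 and Nop10), 19 small subunit and 9 large subunit processing factors. The remaining 2 act outside the pathway or have no known role in it. They are Srm, spermidine synthase, which makes a polyamine, and Nol4l.

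Myc and its relatives bind the letters CACGTG, the E-box, so promoters were searched for it from 250 bases before to 50 bases after each start. The motif reads the same on both strands. RefSeq promoter sequences (GRCm38.p6) were at hand for 34 of the 42 genes. The motif was held by 6 of them (17.6%), against 2187 of 27025 genes with a promoter sequence (8.09%). Unlike the members, these 27025 genes did not have to reach a minimum of UMIs, so the backgrounds are unlike. The 6 windows are shown, 30 bases each in the direction of the gene, because they let the letters be read beside the expression values. Capitals mark the motif.
Nol11, chr11:107189407-107189436, minus strand: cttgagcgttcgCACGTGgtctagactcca
Nop2, chr6:125131811-125131840, plus strand: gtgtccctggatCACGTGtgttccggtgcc
Rrp7a, chr15:83122992-83123021, minus strand: gtgcctgtgcacCACGTGtcctggaactgg
Utp14b, chr1:78658365-78658394, plus strand: cgcgggcgcgggCACGTGggtggggtcgtc
Utp18, chr11:93885769-93885798, minus strand: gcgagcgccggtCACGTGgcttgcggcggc
Utp20, chr10:88826765-88826794, minus strand: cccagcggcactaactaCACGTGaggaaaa
The motif began 43 bases before the start of Nol11, 60 before that of Nop2, 208 before that of Rrp7a, 63 before a start of Utp14b and 20 before that of Utp18, and 38 bases after that of Utp20. Some genes had several starts, with 39 windows for the 34 genes. The start used for Utp14b lies inside the gene as listed, at chr1:78657825-78667601. Such a match describes letters and shows neither binding nor a cause. Srm, Npm1 and Fbl lie at chr4:148591513-148594619, chr11:33152498-33164142 and chr7:28168893-28179269, and no promoter sequence was at hand for them.

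The libraries held 1387032 to 24917112 UMIs in 400 to 3700 barcodes, and 12827 cells passed the study's cell filter. Gates on raw UMIs of marker genes gave 5056 CD8+ T cells, 1199 CD4+ T cells, 1788 NK cells and 1388 myeloid cells. Untransduced ACT at day 12 and non-treated tumors were the smallest, with 42 and 76 CD8+ T cells. The gates bar other lineages' defining genes, so that Cd4 was at 0 in CD8+ cells and Cd3d, Cd3e and Cd3g at 0 in NK and myeloid cells. A list of 5 NK genes, Ncr1 among them, summed to 138 to 322 CPM (UMIs per 1000000 UMIs) in CD8+ cells and 1467 to 3521 CPM in NK cells. Of 15557 barcode sequences, 143 occurred in more than 1 library.

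Summed over the 42 genes, CD8+ T cells held 3071 CPM in the lowest library, 3562 in the median and 4371 in the highest. Because the assay counts 1 UMI per molecule at its 5′ end, CPM was not scaled by gene length. Npm1 made up 33.5% of these UMIs when all libraries were added.

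The first question was whether the genes follow 2 separate states of CD8+ T cells, one marked by Xcl1, a chemokine that T cells release after receptor engagement, and one by Mki67, a gene of dividing cells. Cells with at least 1 UMI of Xcl1 held more ribosome biogenesis RNA than cells with none in each of the 8 libraries. The 42 genes summed to 3653, 4373 and 5919 CPM (lowest, median and highest library) in cells with Xcl1 and to 2713, 3175 and 3518 CPM in cells without. The ranges did not overlap, with means of 4468 ± 726 and 3176 ± 254 CPM (SD, n = 8 libraries). The ratio within a library was 1.12 to 1.88, with a median of 1.43. Without Npm1 each library was still higher with Xcl1, but the ranges overlapped slightly. The lowest sum with Xcl1 was then 2377 CPM (combined ACT at day 12) and the highest without was 2409 CPM (untransduced ACT at day 5). Per gene, edgeR's quasi-likelihood test with the library as a block found 24 of 41 tested members higher and 0 lower at an adjusted P under 0.05, where 10.6% of all 9980 tested genes were higher and 10% lower. The median log2 fold change was 0.52 over the members tested and -0.01 over all genes tested.

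**Figure D1:**
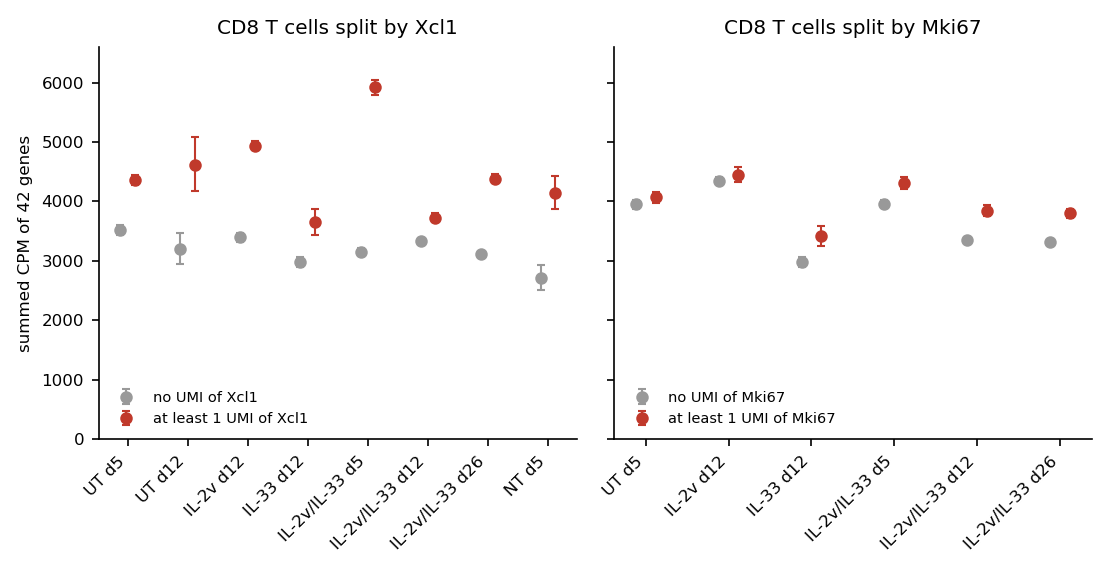
Summed CPM of the 42 genes in CD8+ T cells (y axis, from 0) by library (x axis), split by detection of Xcl1 in one panel and of Mki67 in the other. Points are libraries and bars exact 95% Poisson intervals. Cells with Xcl1 lie above cells without it in 8 of 8 libraries, at 3653 to 5919 against 2713 to 3518 CPM, and cells with Mki67 lie 1.02 to 1.15 times above the others in 6 of 6.

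Several properties moved with the Xcl1 split. Cells with Xcl1 had more UMIs, with a median over cells that was higher in 8 of 8 libraries, and the 8 cell cycle genes summed higher in 6 of 8. A list of T cell activation genes (Ifng, Ccl3, Ccl4, Tnf, Nr4a1, Egr2 and Crtam) summed to 1701 to 15007 CPM in cells with Xcl1 and to 614 to 1569 CPM in cells without, with no overlap. The 5 NK genes summed to 172 to 407 CPM against 69.6 to 263 CPM and were higher in 8 of 8 libraries. Ribosomal protein genes took a larger share of UMIs in cells with Xcl1 in 7 of 8 libraries. Their part in the result was not tested, other than for depth and by 2 further fits. With Mki67 as a term (5 libraries) the median log2 fold change of members was 0.45. Without ribosomal protein and mitochondrial genes it was 0.51. With each cell reduced to 2000 random UMIs and gated again, 13 of 35 members were higher and 0 lower, with a median of 0.48, where 4.66% of all genes tested were higher and 4.73% lower. Among cells with 4000 to 12000 UMIs 12 of 41 were higher and 0 lower, with a median of 0.46, where 3.81% of genes were higher and 2.47% lower. A cell with no UMI of Xcl1 may still express it. P values here measure the spread between libraries that differ in treatment and day.

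Srm had the highest fold change of the 41 members tested. It was at 66.6, 87.6 and 207 CPM (lowest, median and highest of 8 libraries) in cells with Xcl1 and at 17.9, 39.4 and 80.4 CPM in cells without. Each library was higher with Xcl1, and the ranges overlapped only because untransduced ACT at day 12 reached 80.4 CPM without Xcl1. The log2 fold change was 1.46 (SE 0.18, edgeR adjusted P = 6.29e-06). In combined ACT at day 5 the levels were 207 and 35.2 CPM, the widest gap, and in untransduced ACT at day 12 they were 90.1 and 80.4 CPM, the narrowest. With cells reduced to 2000 UMIs, the log2 fold change of Srm was 1.78 (adjusted P = 5.53e-09).

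The nucleolar chaperones and scaffolds rose in 3 of 3 cases. Npm1, nucleophosmin, which carries ribosomal proteins and shapes the nucleolus, was the most abundant member, at 1137, 1534 and 1956 CPM with Xcl1 and 813, 1029 and 1226 CPM without. Its ranges overlapped slightly, each library was higher with Xcl1, and the log2 fold change was 0.60 (SE 0.08, adjusted P = 2.98e-05). Ncl, nucleolin, which binds the precursor RNA, was at 359.9, 412 and 810.4 CPM against 236, 276 and 348 CPM. These ranges did not overlap, and the log2 fold change was 0.67 (SE 0.10, adjusted P = 5.26e-05). Nolc1, a scaffold for snoRNPs, was at 40.4, 67.5 and 139 CPM against 5.36, 36.8 and 61.4 CPM, higher in 8 of 8 libraries with a log2 fold change of 0.91 (SE 0.18, adjusted P = 0.00108).

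The snoRNP proteins rose in 4 of 4 cases. Fbl, fibrillarin, the methyltransferase of the box C/D particles, was at 132, 152 and 236 CPM with Xcl1 and 84.9, 99.8 and 145 CPM without, higher in each library (log2 fold change 0.67, SE 0.10, adjusted P = 8.5e-05). Nop58 and Nop56, the core pair of the same particles, had log2 fold changes of 0.77 (SE 0.12, adjusted P = 9.08e-05) and 0.51 (SE 0.12, adjusted P = 0.00553). Nop10, a small protein of the H/ACA particles that make pseudouridine, was at 258, 355 and 389.7 CPM against 188, 239 and 300.03 CPM, a log2 fold change of 0.54 (SE 0.09, adjusted P = 0.000262). Both kinds of snoRNP were thus among the members that rose.

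Of the 5 RNA polymerase I subunits, 3 passed the test and 5 had a positive log2 fold change. The difference between subunits was not tested. Polr1b, the second largest subunit, Polr1e and Polr1a, the largest subunit, had log2 fold changes of 0.83, 0.72 and 0.66, with adjusted P values of 0.0227, 0.0092 and 0.0139. Polr1a was at 10.1, 15.2 and 36.5 CPM with Xcl1 and 5.28, 10.3 and 16.7 CPM without, and Polr1b was at 0, 9.2 and 28.4 CPM against 0, 5.13 and 8.69 CPM. Polr1c and Polr1d, which RNA polymerase III also uses, had log2 fold changes of 0.28 (adjusted P = 0.113) and 0.05 (SE 0.08, adjusted P = 0.735). Polr1d was far more abundant than the other subunits, at 282, 423 and 518 CPM against 295, 399 and 479 CPM, and its groups overlapped almost fully.

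Of the large subunit processing factors, 7 of 9 rose. Nop16 was at 33.8, 46.9 and 98.1 CPM with Xcl1 and 4.47, 23.3 and 28.3 CPM without. The ranges did not overlap, and its log2 fold change of 1.26 (SE 0.18, adjusted P = 3.86e-05) was second to that of Srm. The lowest level with Xcl1 came from untransduced ACT at day 12, where only 11 CD8+ T cells had Xcl1. The log2 ratio of Nop16 within that library was 0.25, so the lack of overlap rests on few molecules. Rrp15 was at 27, 37.2 and 56.8 CPM against 4.47, 19.4 and 32.1 CPM, a log2 fold change of 0.98 (SE 0.15, adjusted P = 0.000106). Nop2, a methyltransferase of the large subunit RNA with the E-box shown, rose by a log2 fold change of 0.72 (SE 0.16, adjusted P = 0.00305) and was higher in 8 of 8 libraries. The other large subunit factors that rose were Rrp1 (0.42, adjusted P = 0.005), Rrp1b (0.52, adjusted P = 0.0162), Nol9 (0.56, adjusted P = 0.0386) and Nol12 (0.44, adjusted P = 0.0195). Rrp8 (0.34, adjusted P = 0.0983) and Nol8 (0.22, adjusted P = 0.33) did not.

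Small subunit processing factors rose in 6 of 18 cases tested, with a median log2 fold change of 0.31. Those that rose were Utp20 (0.77, adjusted P = 0.00504), Rrp12 (0.82, adjusted P = 0.0218), Rrp9 (0.71, adjusted P = 0.000448), Nol11 (0.60, adjusted P = 0.00543), Utp6 (0.55, adjusted P = 0.0125) and Utp11l (0.34, adjusted P = 0.044). Rrp9 is a component of the U3 snoRNP, which guides the first cuts of the precursor. At the other end, Utp23 (0.06, adjusted P = 0.901), Utp3 (0.02, adjusted P = 0.952), Nop9 (-0.07, adjusted P = 0.788) and Rrp36 (-0.12, adjusted P = 0.562) were the lowest members. Utp3 was at 37, 51.2 and 61.1 CPM with Xcl1 and 37.1, 46.5 and 64.2 CPM without, so that the groups overlapped. The difference in share between small and large subunit factors was not tested. Nol4l had a log2 fold change of 1.07 (SE 0.43, adjusted P = 0.0819) from 0 to 11.2 CPM per library, and Utp14b was too low to be tested.

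Of the genes whose promoter windows are printed, Nol11, Nop2 and Utp20 passed the test, while Utp18 (0.35, adjusted P = 0.165) and Rrp7a (0.16, adjusted P = 0.317) did not. Of all members tested, 24 of 41 passed. Whether members with the motif differ from the others was not tested. Myc itself was at 23.4 to 417 CPM in cells with Xcl1 and 8.8 to 91.1 CPM in cells without, a log2 fold change of 1.58 (SE 0.16, adjusted P = 4.69e-07). The list of Myc and its partner factors did not follow Myc as a whole. Of its 8 genes tested, 2 were higher and 3 lower, with a median log2 fold change of -0.14.

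**Figure D2:**
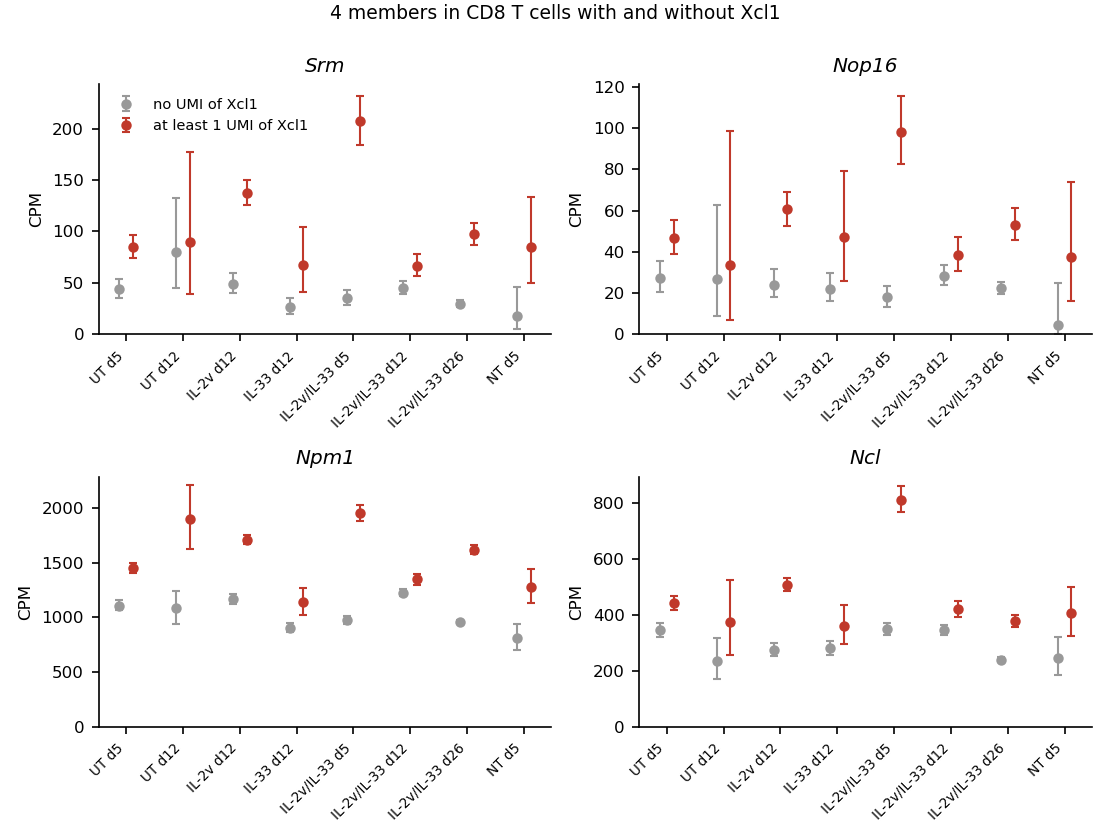
CPM (y axes, from 0) of Srm, Nop16, Ncl and Npm1 in CD8+ T cells by library (x axes), with and without a UMI of Xcl1. Points are libraries and bars exact 95% Poisson intervals, which cover counting error only. For Nop16 and Ncl the lowest library with Xcl1 (33.8 and 359.9 CPM) lies above the highest without (28.3 and 348 CPM). For Nop16 that lowest library is untransduced ACT at day 12, with 11 cells with Xcl1.

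Other genes of the pathway were taken from lists by role. Of 109 further ribosome biogenesis genes tested, 61 were higher with Xcl1 and 0 lower, with a median log2 fold change of 0.47. Of all genes tested, 10.6% were higher and 10% lower, the share beside which each list below stands. By list, it was 8 of 11 other snoRNP genes, 34 of 50 other large subunit genes, 18 of 38 other small subunit genes, and 1 of 10 other polymerase I genes. The last was near the share of all genes. Among the snoRNP genes, Gar1 (0.99, adjusted P = 6.63e-05), Nhp2 (0.79, adjusted P = 2.77e-05) and Dkc1 (0.70, adjusted P = 0.00138) form the H/ACA particle together with Nop10. The RNA exosome, which trims precursor RNAs, had 3 of 13 genes higher. Of the polyamine enzymes beside Srm, 2 of 4 were higher, Sms at 0.34 (adjusted P = 0.00496) and Odc1, the entry enzyme, at 0.33 (adjusted P = 0.0276). The difference between Srm and these enzymes was not tested.

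The Mki67 split moved the summed level less. It could be made in 6 libraries, since untransduced ACT at day 12 and non-treated tumors had 4 and 9 CD8+ T cells with Mki67, under the minimum of 10. The 42 genes summed to 3412, 3957 and 4452 CPM in cells with Mki67, and to 2980, 3662 and 4350 CPM in cells without over all 8 libraries. The ranges overlapped, although cells with Mki67 were higher in 6 of 6 libraries, by 1.02 to 1.15 times. Of 40 tested members, 7 were higher and 1 lower, where 17.7% of 9762 genes were higher and 16.9% lower. The medians were -0.05 over members tested and -0.03 over all genes tested, so the share of members called was near or below the background in both directions. The list of 8 cell cycle genes was higher with Mki67 in 6 of 6 libraries (1666 to 2172 CPM against 101 to 304 CPM). The NK list, the list of 8 monocyte or macrophage genes and the share of ribosomal protein UMIs were each lower with Mki67 in 6 of 6. Their part in the result was not tested, other than by a fit without ribosomal protein and mitochondrial genes, where the median of members was -0.06.

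The 7 that rose were 2 of 3 chaperones and scaffolds, 2 of 4 snoRNP proteins, 2 of 18 small subunit factors and 1 of 9 large subunit factors tested, with 0 of 5 polymerase I subunits. Of all genes tested, 17.7% were higher, and differences between roles were not tested. Nol12, an RNA-binding nucleolar protein, was at 32.2, 32.7 and 47.2 CPM with Mki67 and 19.6, 25.6 and 31.7 CPM without, with no overlap (log2 fold change 0.40, SE 0.11, edgeR adjusted P = 0.00665). Nop58 (0.36, adjusted P = 0.00639), Nop9 (0.36, adjusted P = 0.0126), Nolc1 (0.35, adjusted P = 0.00365), Nop56 (0.25, adjusted P = 0.0263), Ncl (0.25, adjusted P = 0.0078) and Nol7 (0.19, adjusted P = 0.0364) also rose, with overlapping ranges. Utp14a, a small subunit factor, fell, from 18.8, 31.5 and 39.3 CPM without Mki67 to 17.4, 23.4 and 27.1 CPM with it (-0.42, SE 0.12, adjusted P = 0.0101), and was lower in 5 of 6 libraries. Srm (0.10, adjusted P = 0.502), Npm1 (0.11, adjusted P = 0.157) and Fbl (-0.04, adjusted P = 0.728) did not pass the test. Srm was at 51.9, 62.2 and 103 CPM against 26, 59.6 and 106 CPM, nearly the same range. Nol6 (-0.30, adjusted P = 0.218), Polr1c (-0.27, adjusted P = 0.082), Nop14 (-0.23, adjusted P = 0.135) and Rrp9 (-0.20, adjusted P = 0.34) were the lowest after Utp14a.

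Cells with Mki67 had a median of 11381 UMIs against 5725 in cells without, over all libraries. With cells reduced to 2000 UMIs 0 of 28 tested members passed in either direction, where 5.58% of genes were higher and 5.88% lower. With 4000 to 12000 UMIs 0 of 40 were higher and 1 was lower, Npm1 (-0.42, adjusted P = 0.000187), where 7.3% of genes were higher and 5.63% lower. None of the 7 higher calls was made at either of these depths. Without combined ACT at day 5, 4 were higher and 2 lower.

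**Figure D3:**
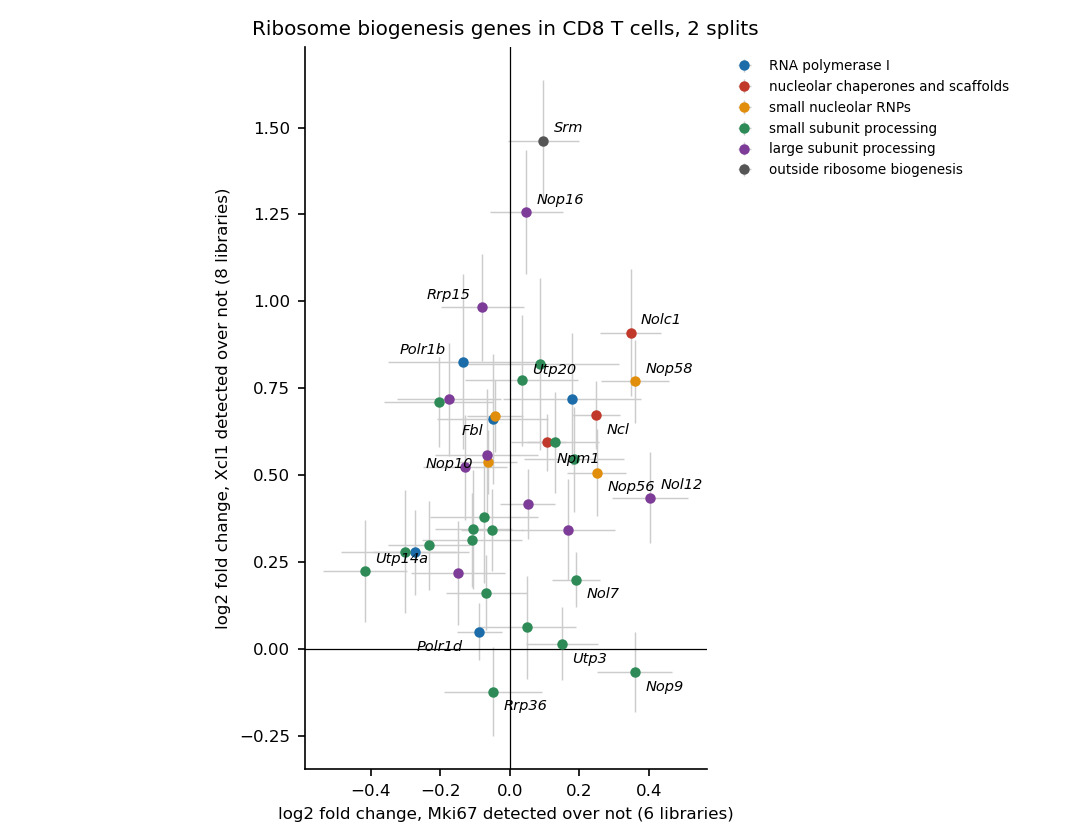
Log2 fold change of each tested member in CD8+ T cells by detection of Xcl1 (y axis, 8 libraries) against that by detection of Mki67 (x axis, 6 libraries), colored by role, with bars of 1 SE. Most points lie above 0 on the y axis (median 0.52) and around 0 on the x axis (median -0.05), and Srm is at 1.46 and 0.10.

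The difference between the splits was tested in 5 libraries that held all 4 subsets of CD8+ cells (with and without each gene). The fold change for Xcl1 exceeded that for Mki67 in 22 of 40 members tested and fell short in 0, where 10.3% of 8980 genes had a larger and 10.9% a smaller one. The median difference in log2 fold change was 0.59 over members tested and 0.03 over all genes tested. It was 1.55 (SE 0.28, adjusted P = 0.000131) for Srm, 1.41 (adjusted P = 0.000118) for Nop16, 1.20 (adjusted P = 6.31e-05) for Rrp15, 0.77 (adjusted P = 0.000368) for Fbl, 0.61 (adjusted P = 0.000279) for Npm1 and 0.48 (adjusted P = 0.0151) for Ncl. Polr1b (1.21, adjusted P = 0.0204) and Rrp9 (1.09, adjusted P = 0.000972) completed the highest 5. Nop9 (-0.38, adjusted P = 0.0563) was the lowest and did not pass. Without combined ACT at day 5, 11 members exceeded, and without IL-2v ACT 15 exceeded and 1 fell short. This test was added after the data had been seen.

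In the same 4 subsets, cells with Xcl1 were higher with and without Mki67 in each library with at least 10 cells in both subsets compared. Among cells without Mki67, the summed level was 4559 CPM with Xcl1 and 3132 CPM without, all libraries added, and it was higher in 8 of 8 libraries. Among cells with Mki67 it was 4563 against 3487 CPM, all libraries added, and higher in 5 of 5 libraries with enough cells. Of those left out, IL-33 ACT went the other way, at 2953 CPM from 9 cells with both genes against 3529 CPM. Untransduced ACT at day 12 and non-treated tumors, with 1 and 3 such cells, were higher with Xcl1. Cells with Mki67 alone exceeded those with neither gene in 6 of 6 libraries, by 1.002 to 1.24 times, and cells with both genes exceeded those with Xcl1 alone in 3 of 5. An interaction of the 2 genes was found for 0 of 40 members by edgeR's quasi-likelihood test, with 1 member (Nop2) at an unadjusted P under 0.05, where 0% of 8980 genes were called higher and 0.0111% lower. The median interaction was -0.26 over members tested, 6 of 40 being positive, and -0.03 over all genes tested. A negative value means a smaller Xcl1 difference in cells with Mki67. With 1 gene called among 8980, the test cannot show that the Xcl1 difference was equal with and without Mki67. DESeq2 was not run for the interaction.

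The second question was how CD8+ T cells compare with the other immune cells of the same tumors. Against CD4+ T cells, the summed level was higher in CD8+ T cells in 8 of 8 libraries, by 1.08 to 1.58 times, at 3071 to 4371 CPM against 2351 to 3393 CPM with overlapping ranges. Without Npm1 the sum was lower in CD8+ T cells in untransduced ACT at day 12, at 2313 against 2652 CPM. It stayed higher in the others. Of 40 members tested, 25 were higher and 0 lower, where 13% of 9303 genes were higher and 14.2% lower, and the median was 0.57 over members tested and 0.00 over all genes tested. CD8+ T cells also had more UMIs per cell and a larger share of ribosomal protein UMIs in 8 of 8 libraries. With cells reduced to 2000 UMIs 9 of 18 tested members were higher and 0 lower, where 12% of genes were higher and 10.5% lower, and with 4000 to 12000 UMIs 19 of 38 were higher and 0 lower, where 12% of genes were higher and 12.7% lower. The 8 monocyte or macrophage genes summed to 666, 842 and 1638 CPM in CD8+ and 67.6, 113 and 209 CPM in CD4+ T cells. Without Ly6c2, which CD8+ T cells can express themselves and which was set aside after the values were seen, they summed to 7.26 to 34.4 CPM and 5.6 to 33.2 CPM, against 5013 to 16493 CPM in myeloid cells. Of the other lists, 3 of 5 NK genes and 4 of 7 activation genes were higher in CD8+ T cells and 1 activation gene was lower. The part of these lists in the result was not tested.

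Srm again had the highest fold change, at 32.4, 59.6 and 105 CPM in CD8+ and 5.16, 28.1 and 49.8 CPM in CD4+ T cells. It was higher in each library, with a log2 fold change of 1.34 (SE 0.14, edgeR adjusted P = 1.02e-06). Npm1 was at 936, 1284 and 1510.1 CPM against 544, 759.95 and 927 CPM, without overlap (0.85, SE 0.09, adjusted P = 6.23e-07). Nop10 did not overlap either, at 234, 265 and 328 CPM against 144, 192 and 226 CPM (0.69, SE 0.10, adjusted P = 4.64e-05). Fbl was at 96.2, 120.2 and 174 CPM against 41.3, 80.6 and 116 CPM (0.82, SE 0.10, adjusted P = 1.05e-05), overlapping but higher in 8 of 8 libraries. Nop16 (1.32, adjusted P = 3.4e-05), Polr1b (1.11, adjusted P = 0.0195), Nolc1 (1.09, adjusted P = 0.000412), Utp20 (0.996, adjusted P = 0.00467) and Ncl (0.48, adjusted P = 0.000631) were higher in 6 or 7 of 8 libraries.

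By role, 3 of 3 chaperones and scaffolds, 4 of 4 snoRNP proteins, 7 of 9 large subunit factors, 9 of 18 small subunit factors and 1 of 5 polymerase I subunits were higher in CD8+ T cells. Of all genes tested, 13% were higher. Polr1d (0.00, adjusted P = 0.981), Rrp1 (0.09, adjusted P = 0.581), Utp23 (-0.04, adjusted P = 0.917), Utp11l (-0.04, adjusted P = 0.819) and Nol10 (-0.29, adjusted P = 0.162) were the lowest. Odc1 was lower in CD8+ than in CD4+ T cells (-1.99, adjusted P = 1.56e-09), opposite in direction to Srm in the same pathway. Myc was higher (1.28, adjusted P = 0.00153), as were 54 of 105 further ribosome biogenesis genes, with 0 lower. Of 8 genes tested in the list of Myc and its partner factors, 1 was higher and 3 were lower.

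Against NK cells, the difference was smaller. The summed level in NK cells was 2626, 3054 and 3777 CPM, and CD8+ T cells were higher in 7 of 8 libraries, the exception being untransduced ACT at day 12 with 3659 against 3777 CPM. Without Npm1 CD8+ T cells were lower in that library (2313 against 2744 CPM) and in combined ACT at day 12 (2199 against 2211 CPM). Of 41 members tested, 18 were higher and 2 lower, where 21.7% of 10266 genes were higher and 16.3% lower, and the median was 0.36 over members tested and 0.03 over all genes tested. Without combined ACT at day 5, 11 were higher, and without IL-2v ACT at day 12 it was 12. CD8+ T cells had more UMIs per cell and a larger share of ribosomal protein UMIs in 8 of 8 libraries. Of 8 cell cycle genes tested, 8 were higher in CD8+ T cells, and their part in the result was not tested. With cells reduced to 2000 UMIs 9 of 38 members were higher and 0 lower, where 14% of genes were higher and 10.7% lower, and with 4000 to 12000 UMIs 8 of 41 were higher and 2 lower, where 15% of genes were higher and 13.4% lower. The median was 0.19 in both.

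Npm1 was at 672, 804 and 1033 CPM in NK cells and was higher in CD8+ T cells in 8 of 8 libraries (0.65, SE 0.07, adjusted P = 8.02e-07). Srm was at 18.6, 44.2 and 96.9 CPM in NK cells, a wide range that overlapped that of CD8+ T cells (0.81, SE 0.16, adjusted P = 0.000489, higher in 6 of 8). Utp20 (0.71, adjusted P = 0.00482), Nop16 (0.64, adjusted P = 0.00325), Nop2 (0.56, adjusted P = 0.00393), Fbl (0.40, adjusted P = 0.0023) and Ncl (0.38, adjusted P = 0.00567) were also higher. Rrp36, a small subunit factor, was lower in CD8+ T cells in 8 of 8 libraries, at 13.5, 23.1 and 34.4 CPM against 17.8, 34.5 and 43.9 CPM (-0.40, SE 0.12, adjusted P = 0.0137), although the ranges overlapped. Nol4l was lower too (-0.94, adjusted P = 0.0417), at under 11 CPM in both types. Nol6 (-0.34, adjusted P = 0.103), Nol9 (-0.07, adjusted P = 0.722) and Rrp7a (-0.07, adjusted P = 0.66) did not pass. Myc was lower in CD8+ than in NK cells (-0.35, adjusted P = 0.0428), while its list had 2 of 8 genes higher and 2 lower.

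Against myeloid cells, the summed level did not overlap, at 3071 to 4371 CPM in CD8+ T cells and 1763 to 2543 CPM in myeloid cells, a ratio of 1.34 to 2.27 within libraries. Of 42 members tested, 23 were higher and 3 lower, where 33.4% of 10826 genes were higher and 33.5% lower. The median was 0.45 over members tested and 0.05 over all genes tested. CD8+ T cells were the deeper cells in 1 of 8 libraries here. Ribosomal protein genes took a larger share of UMIs in CD8+ T cells in 8 of 8 (27.8% to 35.4% against 15.0% to 20.3%). Of 8 cell cycle genes tested, 8 were higher in CD8+ T cells. Their part in the result was not tested, other than by a fit without ribosomal protein and mitochondrial genes (median of members 0.64). With cells reduced to 2000 UMIs the median was 0.91 over members and 0.37 over all genes tested. With 4000 to 12000 UMIs it was 0.64 and 0.14.

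Nop56 was at 50.96, 76.5 and 92.6 CPM in CD8+ T cells and 22.3, 30.4 and 38.5 CPM in myeloid cells, without overlap (1.21, SE 0.12, edgeR adjusted P = 2.13e-07). Npm1, at 338, 469 and 684 CPM in myeloid cells, did not overlap (1.18, SE 0.14, adjusted P = 1.81e-06), nor did Nol7, at 106, 118 and 134 CPM against 185 to 267 CPM in CD8+ T cells (0.73, adjusted P = 5.61e-06). Nol8 had the highest fold change (1.45, SE 0.23, adjusted P = 3.67e-05), at 3.74 to 8.69 CPM in myeloid cells. Polr1b (1.12, adjusted P = 0.0128), Rrp1b (1.02, adjusted P = 0.000112), Ncl (0.87, adjusted P = 0.00023) and Srm (0.77, adjusted P = 0.00245) were higher as well. Fbl was at 84.2, 119 and 176 CPM in myeloid cells, the same range as in CD8+ T cells (-0.10, SE 0.15, adjusted P = 0.545), while its partners Nop56 and Nop58 passed the test. The difference between Fbl and these was not tested. Utp3 (-0.27, adjusted P = 0.0364), Utp14a (-0.37, adjusted P = 0.0209) and Nol4l (-1.23, adjusted P = 0.0319) were lower, calls that were lost without TMM scaling, which moved the median of all genes to 0.29, and in turn without untransduced ACT at day 5, IL-2v ACT, IL-33 ACT, combined ACT at day 26 or non-treated tumors. Utp14b (-0.88, adjusted P = 0.103) did not pass.

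**Figure D4:**
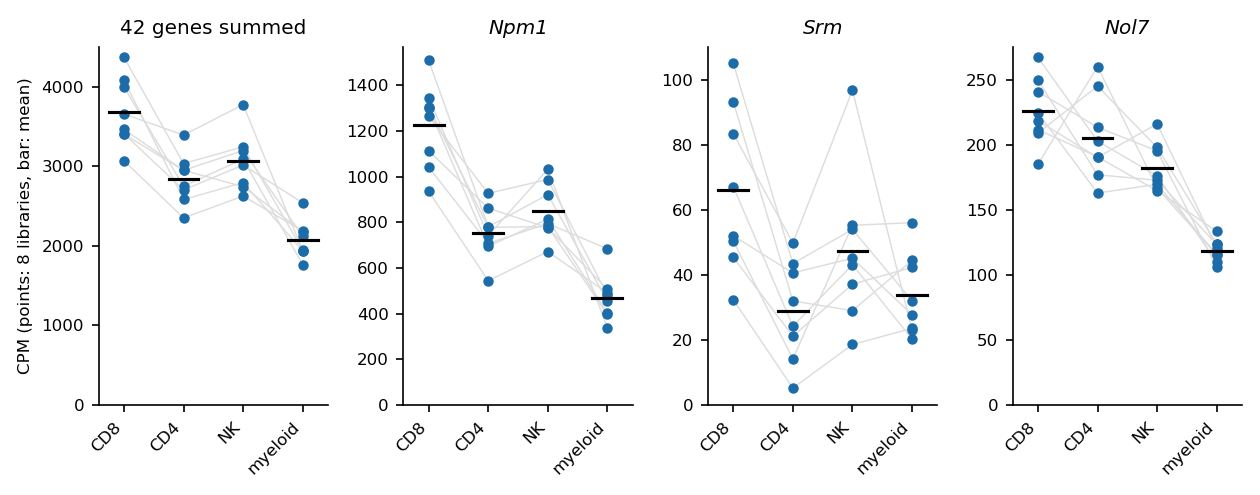
CPM (y axes, from 0) of the 42 genes summed and of Npm1, Srm and Nol7 in CD8+, CD4+, NK and myeloid cells (x axes). Points are the 8 libraries and bars their mean. The summed level of CD8+ T cells (3071 to 4371 CPM) lies above that of myeloid cells (1763 to 2543 CPM) without overlap. Npm1 and Nol7 in CD8+ T cells also lie above their levels in myeloid cells without overlap.

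The third question was whether treatment or day moved the genes within CD8+ T cells. Each condition is 1 library, so the pairs have no replicate check and no test was made. A member counted as higher or lower at 1.5-fold or more after 10 CPM were added to both levels, if it had at least 50 UMIs in the pair. Runs are confounded with some conditions, since IL-2v ACT shares 1 run identifier with IL-33 ACT, and the day 12 libraries of untransduced and combined ACT share another.

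Of the 8 pairs, the one between the single cytokines at day 12 had the largest count of members past 1.5-fold in CD8+ T cells. In IL-2v ACT 10 of 40 members were higher than in IL-33 ACT and 0 lower, where 6.76% of 8208 genes were higher and 7.48% lower, with a median log2 ratio of 0.41 over members tested. Srm was at 105 CPM in IL-2v ACT and 32.4 CPM in IL-33 ACT (log2 ratio 1.44), Nop58 at 109 and 56.6 CPM (0.84), Nop2 at 24.8 and 10.5 CPM (0.77), Fbl at 169 and 96.2 CPM (0.75) and Npm1 at 1510.1 and 936 CPM (0.68). Nolc1, Nol11, Rrp1, Rrp15 and Nop16 were the other members past 1.5-fold, and the 95% Poisson intervals of each of the 10 were separate. Ncl was at 420.1 and 290.1 CPM (0.52), short of that fold. Nol9 (-0.26), Utp23 (-0.17) and Polr1d (-0.11) were the lowest. Over the alternative settings 6 to 18 members were higher and 0 lower.

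The libraries of that pair also differed in their share of cells with Xcl1, 311 of 571 CD8+ T cells against 38 of 365. Among cells with neither Xcl1 nor Mki67, 6 of 30 members were higher and 0 lower, where 6.57% of genes were higher and 10.2% lower. The summed level there was 3395 CPM in IL-2v ACT against 2848 CPM in IL-33 ACT. Cells of IL-2v ACT were also deeper, with a median of 8321 against 5277 UMIs over all CD8+ T cells. Among cells with neither gene it was 7149 against 5012 UMIs. The part of depth in this pair was not tested.

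Combined ACT was compared next with each single cytokine at day 12. Because it mixes both cell products, its share of cells with a given cytokine also differs from that in the single cytokine ACT. In CD8+ T cells of combined ACT 1 of 41 members was higher and 5 lower than in IL-2v ACT, where 5.33% of genes were higher and 7.17% lower, with a median of -0.39. Srm was at 52.03 against 105 CPM (-0.89), and Nolc1 (-0.71) and Utp18 (-0.67) followed. Nol4l was the member that was higher (0.60). Over the alternative settings 0 to 1 members were higher and 1 to 15 lower. The share of cells with Xcl1 differed here too, 210 of 727 CD8+ T cells in combined ACT against 311 of 571 in IL-2v ACT. The summed level was 3464 against 4371 CPM in all CD8+ T cells and 3339 against 3396 CPM in those without Xcl1. In cells with Xcl1 it was 3726 against 4938 CPM. The part of the differing share of cells with Xcl1 was not tested. Against IL-33 ACT, 1 of 41 was higher and 0 lower (3.47% and 4.33% of genes), namely Polr1a at 16.4 against 5.93 CPM (0.73), with Srm at 52.03 against 32.4 CPM (0.55). Both contrasts and the one between the single cytokines share libraries, so their counts are not separate observations.

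Against untransduced ACT, the share of members past 1.5-fold was at or below that of all genes tested in each direction at both days. At day 5, 0 of 40 members were past 1.5-fold in either direction in combined ACT, where 7.14% of genes were higher and 9.15% lower, with a median of -0.01. Srm (93.2 against 67.2 CPM, log2 ratio 0.42) and Polr1c (0.41) were the highest, and Utp11l (-0.53) and Rrp36 (-0.55) the lowest. At day 12, 2 of 39 were higher and 4 lower (15.3% and 12.7% of genes), Nolc1 at 41.4 against 18.2 CPM (0.87) and Nol8 (0.80) higher, Rrp9 (-0.83), Nol11 (-0.66), Fbl at 111 against 174 CPM (-0.61) and Srm (-0.59) lower. The untransduced library held 42 CD8+ T cells, with 5 UMIs of Nolc1 and 2 of Nol8, and the Poisson intervals overlapped for 5 of these 6 members, all but Fbl. Untransduced ACT at day 5 had 1 of 38 members higher than non-treated tumors and 0 lower (8.23% and 4.97% of genes), Nop16 at 38.3 against 20.6 CPM (0.66), with overlapping Poisson intervals.

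Over time in combined ACT, 0 of 41 members were higher at day 12 than at day 5 and 4 were lower, where 1.58% of genes were higher and 2.63% lower. Those were Srm (52.03 against 93.2 CPM, log2 ratio -0.74), Polr1c (-0.65), Nolc1 (-0.61) and Polr1b (-0.60), and the median was -0.27. Over the alternative settings the counts for this pair were 0 to 1 higher and 0 to 10 lower. From day 12 to day 26, 2 of 41 were higher and 2 lower (9.45% and 5.43% of genes), with a median of 0.01. Rrp36 (31.4 against 16.03 CPM, 0.67) and Rrp7a (0.59), both small subunit factors, were higher. Nop56 (50.96 against 82 CPM, -0.59) and Nol4l (-0.65) were lower, and Ncl was at 270.2 against 369 CPM (-0.43). Ncl was thus at 504 CPM at day 5, 369 CPM at day 12 and 270.2 CPM at day 26, with 1 library at each day.

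With all cells of a library added, fewer members were past 1.5-fold, and fewer cells of a type cannot be told from less RNA per cell. Between IL-2v and IL-33 ACT 2 of 41 were higher and 0 lower (6.99% and 6.16% of genes), Srm at 65.6 against 30.3 CPM (log2 ratio 0.91) and Nop2 at 19.1 against 9.37 CPM (0.59). From day 12 to day 26 of combined ACT 3 of 41 were higher and 1 lower (8.3% and 4.23% of genes), Utp3 at 61.8 against 37.6 CPM (0.59), Rrp7a (0.63) and Rrp36 (0.60) higher and Nop56 at 44 against 73.8 CPM (-0.63) lower. Combined against untransduced ACT at day 12 had 0 of 41 higher and 4 lower (4.18% and 11.7% of genes), namely Rrp1 (-0.75), Utp18 (-0.67), Nol11 (-0.64) and Utp3 (-0.63). In the remaining pairs 0 members were past 1.5-fold either way. The shares of genes higher and lower there were 6.25% and 6.95% for combined against untransduced ACT at day 5, 4.15% and 8.58% for combined against IL-2v ACT, 1.84% and 2.53% for combined against IL-33 ACT, 0.776% and 5.11% from day 5 to day 12 of combined ACT, and 1.63% and 1.32% for untransduced ACT against non-treated tumors.

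**Figure D5:**
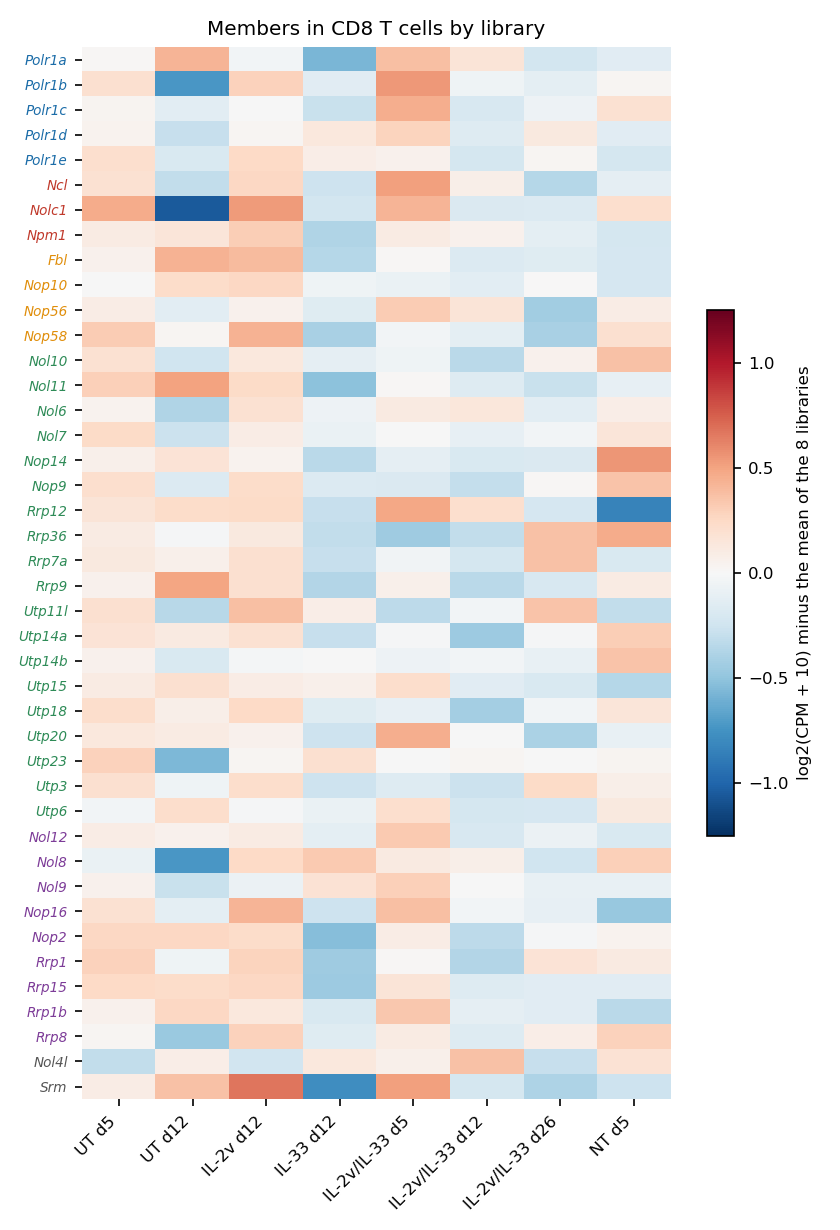
Members (rows, by role) in CD8+ T cells of the 8 libraries (columns), colored by log2(CPM + 10) minus the mean of the libraries. IL-2v ACT and IL-33 ACT at day 12 differ most among the 8 pairs of libraries compared, as for Srm at 105 and 32.4 CPM.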

How the data were processed

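The authors deposited raw UMI counts per gene and barcode, made and aggregated with Cell Ranger (2.2.0 in the submitters' processing notes, which name GRCm38). Barcode suffixes were matched to libraries by the line order of the deposited aggregation table, an assumption on which every value per library rests. Cells were kept with 500 to 6000 genes, 2000 to 40000 UMIs, 5% to 60% ribosomal protein and under 10% mitochondrial UMIs. CD8+ T cells had a UMI of Cd3d, Cd3e or Cd3g, lacked Cd4 and had Cd8a or Cd8b1. CD4+ T cells had the reverse. NK cells had Ncr1 and none of these. All 3 had under 3 UMIs of myeloid genes (Lyz2, Csf1r, C1qa, C1qb and Cd68) and none of Cd79a, and myeloid cells had at least 3. Doublets were not called.

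UMIs were summed per library and subset (at least 10 cells) and tested with edgeR 4.0.16 (R 4.3.3; TMM, filterByExpr, quasi-likelihood test, library block), with Benjamini-Hochberg adjustment over all genes tested. Counts of members are over those that passed the filter. Between libraries, CPM ratios with exact 95% Poisson intervals were computed (Python 3.11.15, scipy 1.17.1), which cover counting error only. On simulated data 95 of 100 genes changed by a log2 of 1 were recovered for the Xcl1 split and 57 of 100 changed by 0.6. The simulation gave all genes the same dispersion and each changed gene the same change in every library. These shares therefore need not hold for the real libraries, which differ in treatment and day. Named members are Srm, Ncl, Npm1, Fbl, the 5 highest and 5 lowest per test and the 3 highest and 3 lowest per pair. The others named were chosen after their values were seen. Alternatives included DESeq2 1.42.0, no TMM, other filters and gates, fixed depth and leaving out libraries. The members and lists were chosen with earlier results of these data known. The T cell receptor clones and the study's other experiments were not analysed here.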

Additional observations from a re-analysis of the deposited data

Results flagged for a closer look

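Among 64 groups of within-library log2 ratios examined, 3 held a library far from the others by Dixon's criterion at the 95% level, which chance alone flags in about 5% of groups. Nop9, a small subunit factor, had a log2 ratio of -0.74 between CD8+ T cells with and without Xcl1 in non-treated tumors, against -0.26 to 0.15 in the other libraries. Nolc1 had a log2 ratio of -1.54 between CD8+ and CD4+ T cells in untransduced ACT at day 12, against 0.36 to 1.49 in the others. Polr1d had -0.59 in the same library and comparison, against -0.20 to 0.06 in the others. These were the libraries with the fewest CD8+ T cells, 42 and 76.

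The fold change for Xcl1 exceeded that for Mki67, by the test of the difference itself (edgeR's quasi-likelihood test, 5 libraries), for 22 of 40 members tested. Of 8980 genes tested, 10.3% had a larger and 10.9% a smaller fold change for Xcl1. The 8 listed next are those that passed among the members named. These include the 5 highest of this same test, so their count is no separate result. The difference was 1.55 for Srm, 1.41 for Nop16, 1.21 for Polr1b, 1.20 for Rrp15, 1.09 for Rrp9, 0.77 for Fbl, 0.61 for Npm1 and 0.48 for Ncl, each with the larger fold change for Xcl1.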

How the results depend on the processing

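The direction of the Xcl1 result held under the settings tried. At fixed depth its size changed little (median log2 fold change 0.52, 0.48 thinned and 0.46 at 4000 to 12000 UMIs), while fewer members passed. Of 24 members higher with Xcl1, the count became 13 with cells thinned to 2000 UMIs and 12 with 4000 to 12000 UMIs per cell, and was 16 to 25 when each library was left out (16 without combined ACT at day 5), with 0 lower. The Mki67 calls depended on depth and on the tool. The 7 higher and 1 lower became 3 and 0 with DESeq2, 0 and 0 thinned, 0 higher at 4000 to 12000 UMIs, and 2 and 3 with Xcl1 as a term. At least 2 UMIs of Mki67 gave 2 lower, and leaving out each library gave 4 to 7 higher and 1 to 2 lower. Log2 fold changes with Mki67 that reversed were Ncl (-0.0038), Nop58 (-0.0657) and Nop9 (-0.34) thinned, and Ncl (-0.0103), Nop58 (-0.0402), Nolc1 (-0.22) and Npm1 (-0.42) at 4000 to 12000 UMIs.

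For CD8+ against CD4+ T cells, 25 became 9 thinned, and 1 was lower without TMM, which moved the median of all genes to -0.13. Leaving out libraries gave 20 to 26 higher. Against NK cells, 18 became 9 thinned and 8 at 4000 to 12000 UMIs, and 2 lower became 1 with all barcodes, 0 thinned, 1 without the limit on myeloid and B cell genes and 1 without the smallest 2 libraries, with 11 to 21 higher and 1 to 2 lower when each was left out. Against myeloid cells, 3 lower became 0 without TMM, with DESeq2, thinned, at 4000 to 12000 UMIs, without the limit, and without ribosomal protein and mitochondrial genes, with 19 to 28 higher and 0 to 3 lower when each library was left out, and Utp14a (0.14) and Utp3 (0.21) reversed when thinned. For the difference of the splits the ranges were 11 to 23 and 0 to 1.

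Over the 8 pairs of libraries, 17 higher and 15 lower in CD8+ T cells became 37 and 41 with 1 CPM added, 26 higher with the mean of single cells, 8 lower with TMM factors, and 24 lower in cells with no UMI of Mki67. In whole libraries 5 were higher and 5 lower, against 17 and 15 for CD8+ T cells only. The alternatives without ribosomal protein and mitochondrial genes, without the smallest 2 libraries together, and the test of the difference were chosen after seeing the data. No paired analysis was possible for the pairs of conditions because each condition and day was 1 library, while the tests within libraries had the library as a block throughout. For single members, 1061 values under an alternative kept direction and call, 78 lost the call and 11 gained one. Another 50 changed direction with no call in either fit, and 9 reversed with a call in the main or the alternative fit. The cause was not tested for any of these changes.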
